A study of Mus musculus with 21 samples.

Results

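The 8 genes described here make and load the peptides that MHC class I molecules present. They are Psmb8, Psmb9, Psmb10, Tap1 and Tap2, Tapbp, B2m and Erap1, and they were taken as every probe set whose platform gene symbol was one of these names. That gave 15 of the 45101 probe sets on the array, for 8 of 18193 genes with a probe set. Proteasomes cut cytosolic proteins into peptides, a transporter pumps the peptides into the endoplasmic reticulum, and an assembly complex places them on class I heavy chains bound to beta-2 microglobulin. Psmb8, Psmb9 and Psmb10 encode the catalytic subunits of the immunoproteasome, which take the places of the constitutive subunits encoded by Psmb5, Psmb6 and Psmb7. Interferon gamma is known to raise most of these genes, and lymphocytes express them without stimulation.

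Transcript signals were measured on 21 Affymetrix mouse arrays, 3 for each of 7 groups. For 4 groups, B220+ cells were sorted from the marrow of wild type, Cebpb LAP transgenic, Blnk KO and Blnk KO/LAP tg mice. LAP is the form of C/EBPβ that activates transcription, and BLNK is an adaptor of pre-B cell receptor signalling. For the other 3 groups, LB31 cells, a pre-B ALL line that arose in a Blnk KO mouse, received the retroviral vector pMY either empty, with Blnk cDNA, or with YF, a mutant without function. They were kept in 5 ng/ml of IL7. All 3 LB31 groups therefore share 1 line and its Blnk KO origin. The promoter of the LAP transgene, the strain, age and sex of the mice, and whether the replicates of a group were separate animals or cultures are not stated in the labels. The p-values thus set group differences against the spread among these samples only, and that spread may be technical.

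The single Blnk probe set did not follow the labels. Wild-type marrow had a normalized log2 level of 12.44 ± 0.088 (SD, n = 3) and Blnk KO marrow one of 12.37 ± 0.24, and the level was 9.63 ± 0.016 with the empty vector against 8.56 ± 0.058 with Blnk cDNA in LB31. Whether this probe set lies in the deleted or in the transduced part of the gene is not given here, so it does not check the labels, and the groups are called knockout-labelled, LAP knockout-labelled, BLNK-labelled and YF-labelled. The brighter Cebpb probe set was at 10.05 ± 0.15 in LAP marrow, 9.90 ± 0.083 in LAP knockout-labelled marrow and 5.02 ± 0.35 in knockout-labelled marrow against 5.43 ± 0.10 in wild-type marrow, and between 9.98 and 10.28 on all 9 LB31 arrays. By this probe set LB31 was thus at the level of both LAP groups and above knockout-labelled marrow, and it is set against knockout-labelled and LAP knockout-labelled marrow in turn. All 7 measured B lineage markers were above the filter level on every array. The sorted marrow cells also carried neutrophil transcripts, with a summed signal of 9 markers between 16000 and 62100, against 37.4 to 116 in LB31. In such bulk samples fewer cells of a type and less RNA per cell cannot be told apart.

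On chromosome 17 of the mouse assembly GRCm38.p6, Psmb9, Tap1, Psmb8 and Tap2 follow each other within 34292 bases, at chr17:34182030-34216321. Tapbp lies on the same chromosome at chr17:33919478-33929290. Psmb10 lies at chr8:105935728-105938392, Erap1 at chr13:74639573-74693205 and B2m at chr2:122147687-122153082. Psmb9 and Tap1 point away from each other and only 225 bases separate their starts. That gap is shown because it is the common upstream region of both genes, and the 250 bases before B2m are shown as the upstream region of the one member that remains part of the presenting molecule. Both are RefSeq sequences of GRCm38.p6, at chr17:34187331-34187555 and chr2:122147437-122147686, plus strand, 5′ to 3′, and capitals mark matches to the motifs searched.
Tap1 and Psmb9 gap: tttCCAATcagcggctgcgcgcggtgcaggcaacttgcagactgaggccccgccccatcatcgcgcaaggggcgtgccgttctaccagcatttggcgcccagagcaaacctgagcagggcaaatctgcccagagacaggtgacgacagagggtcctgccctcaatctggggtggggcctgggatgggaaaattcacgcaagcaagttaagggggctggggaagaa
B2m upstream: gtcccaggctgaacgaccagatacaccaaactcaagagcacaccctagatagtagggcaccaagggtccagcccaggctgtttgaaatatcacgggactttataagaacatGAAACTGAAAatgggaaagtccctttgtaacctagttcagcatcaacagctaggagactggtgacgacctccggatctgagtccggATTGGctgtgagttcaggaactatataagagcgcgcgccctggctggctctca
The motifs were GAAANNGAAA, a pair of interferon regulatory factor half-sites, TTCNNNGAA, the gamma interferon activated site read by STAT proteins, and CCAAT, the CCAAT box, each on both strands. They do not overlap in these windows. GAAANNGAAA occurred in 2.97% of all 32817 distinct windows of 250 upstream bases, TTCNNNGAA in 7.01% and CCAAT in 33.8%. RefSeq windows matched 7 of the 8 genes, all but Tap2. Among them GAAANNGAAA was found in B2m alone, TTCNNNGAA in Psmb8 alone, and CCAAT in B2m, Tap1, Psmb9 and Tapbp. The CCAAT of Tap1 and that of Psmb9 are the same site in their shared gap. None of the motifs was found before Psmb10 or Erap1.

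A pseudocount of 4 was added to each signal, log2 was taken, and the arrays were quantile normalized, because their median deposited signal ran from 15.3 to 31.4. Levels across all 7 groups come from all 21 arrays normalized together. Changes within marrow or within LB31 come from those 12 or 9 arrays normalized on their own, so they can differ a little from differences of the levels. Every change is a log2 difference ± SE between groups of n = 3, with a two-sided p-value from limma adjusted by Benjamini-Hochberg over all probe sets tested, and "called" means an adjusted p under 0.05. The brightest probe set, by its mean over all arrays, stands for a gene, and the others are given beside it. All 8 such probe sets were above the filter level on every array. Of the other 7, 4 were tested in every fit, and Tap1 probe set 1448177_at was tested in LB31 and over all arrays but not in marrow. Tap1 probe sets 1449803_x_at and 1420274_at were too dim for any fit, with log2 levels between 2.19 and 4.17 and between 2.08 and 4.

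The immunoproteasome subunits were high in every group. Psmb8, which carries the chymotrypsin-like activity, had its highest mean level in empty-vector LB31, at 11.53 ± 0.058 (SD, n = 3), followed by YF-labelled LB31 at 11.43 ± 0.022 and BLNK-labelled LB31 at 11.21 ± 0.017. The ranges of these 3 groups did not overlap, and all lay above the marrow groups, whose means ran from 10.77 ± 0.19 in LAP to 11.02 ± 0.12 in wild-type marrow. Neighbours among the marrow groups overlapped. Psmb9, which replaces the caspase-like subunit, spanned 0.39 from 10.30 ± 0.056 in wild-type marrow to 10.69 ± 0.073 in empty-vector LB31, and each group overlapped the next in that order. Psmb10, which replaces the trypsin-like subunit, spanned only 0.33, from 9.95 ± 0.094 in LAP knockout-labelled marrow to 10.28 ± 0.040 in wild-type marrow, again with overlap at each step.

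The transporter genes had different patterns. Tap1 encodes one chain of the peptide pump, and its mean level ran from 9.97 ± 0.25 in wild-type marrow to 9.34 ± 0.039 in BLNK-labelled LB31. The marrow replicates of Tap1 were widely spread, from 9.44 to 10.23 in LAP marrow. Tap2, the partner chain, had the widest span of the 8 genes, 1.84. It was between 8.30 and 8.70 on all 12 marrow arrays, between 9.64 and 9.75 in BLNK-labelled LB31, and between 10.10 and 10.32 in the other LB31 groups. The BLNK-labelled arrays thus stood clear of both neighbouring groups in that order, while the marrow groups overlapped one another.

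Tapbp encodes tapasin, which bridges the transporter and the class I heavy chain. Its mean level was highest in LAP marrow, at 10.69 ± 0.12, followed by 10.53 ± 0.20 in knockout-labelled and 10.44 ± 0.028 in wild-type marrow. It was 10.04 ± 0.094 in LAP knockout-labelled marrow, below and clear of wild-type marrow, and between 9.85 and 9.96 on all LB31 arrays. B2m, the light chain of every class I molecule, spanned 0.57, from 12.74 ± 0.068 in empty-vector LB31 to 13.31 ± 0.13 in knockout-labelled marrow. No LB31 array reached the lowest marrow array, 12.91 against 13.01. Erap1, the aminopeptidase that trims peptides in the endoplasmic reticulum, spanned 1.38. It was 7.15 ± 0.027 in LAP marrow, 7.43 ± 0.11 in wild-type, 7.53 ± 0.049 with the knockout label and 7.79 ± 0.24 with both labels, and 8.24 ± 0.038 to 8.53 ± 0.011 in LB31. LAP marrow and BLNK-labelled LB31 were each clear of the group next to them, and the 3 other marrow groups overlapped in turn.

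**Figure D1:**
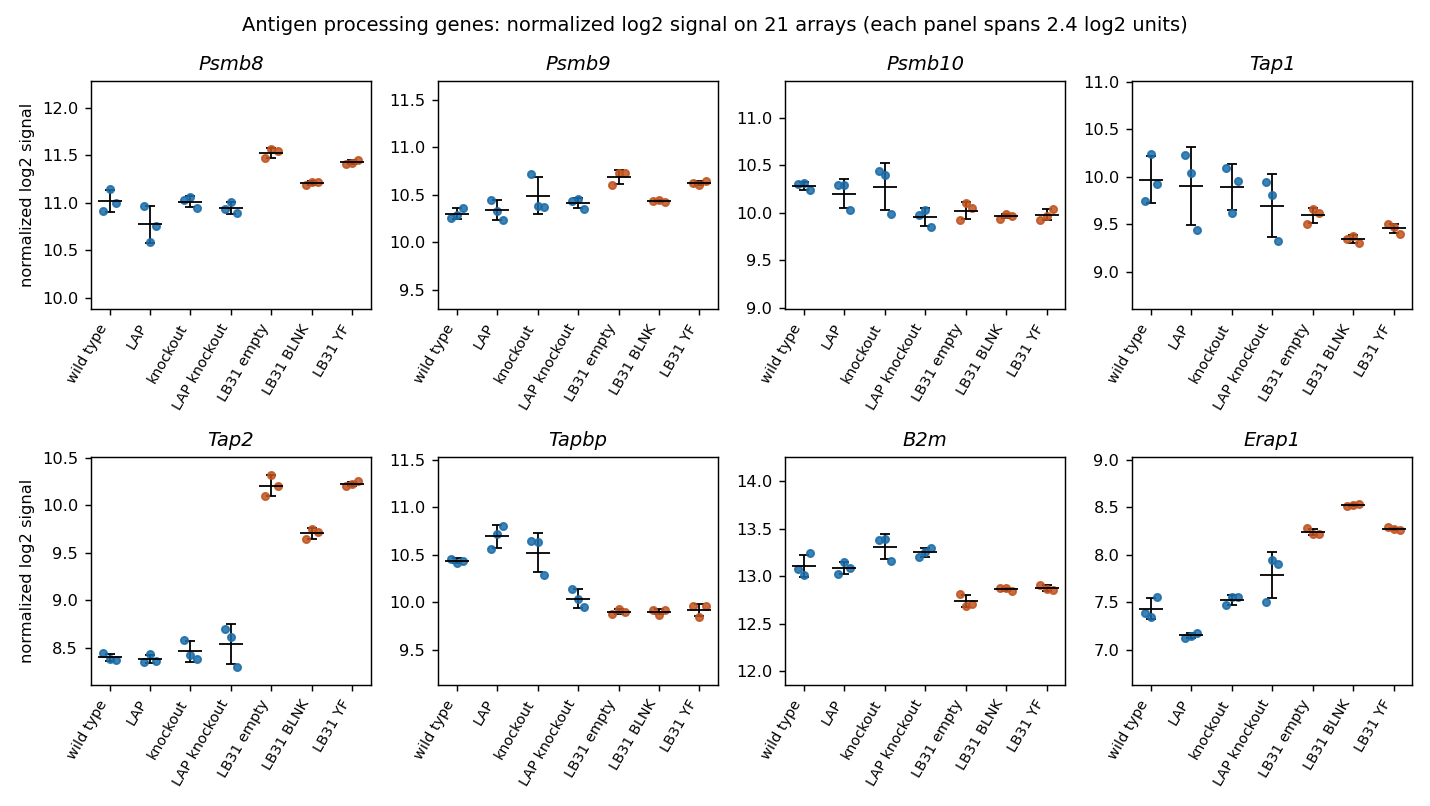
Normalized log2 signal (y axis) of the 8 genes by group (x axis); points are single arrays, bars are the mean ± SD of n = 3, blue is marrow and orange LB31, and each panel spans the same 2.4 log2 units. On this scale Tap2 and Erap1 are higher and B2m lower on all LB31 arrays than on all marrow arrays, Tapbp in LB31 overlaps LAP knockout-labelled marrow, and the BLNK-labelled arrays have the lowest Tap2 and the highest Erap1 within LB31.

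Over the 7 group means of the same normalized arrays, Tap2 and Psmb8 had a Pearson r of 0.94 and Tap1 and Erap1 one of -0.95. These were the highest and lowest of all pairs, so they are extreme partly by selection. The means span both marrow and LB31, so differences between these cells weigh on each r. The r of Tap1 is for its bright probe set. Its other tested probe set had the other sign for empty-vector LB31 against knockout-labelled marrow (2.98 against -0.3). By likeness to the mean standardized profile of the 8 genes over 7 groups, the 8 most similar of 14647 other genes were Rptoros (r of 0.93), Mmp16 (0.912), Fam71d (0.911), Adamts8 (0.904), Aebp2 (0.889), Plekhg5 (0.881), Mak (0.88) and Gpr33 (0.877). Among those 8 only Aebp2, a partner of Polycomb repressive complex 2, had group means above 9, from 9.38 to 9.57. The others had means between 2.59 and 6.02, of which the lower ones lie below the filter level of 4.06. The mean profile itself ran only from -0.29 in LAP knockout-labelled to 0.33 in knockout-labelled marrow, since members with opposite patterns partly cancel in it. Picking the highest of 14647 r values over 7 points also gives high values by selection. These genes are therefore not shown to follow the 8 processing genes.

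The first question in marrow was whether these genes differ with the knockout label, with LAP or with both. With either alone, none of the 8 was called on quantile-normalized marrow arrays. For knockout-labelled against wild-type marrow limma called 0 of 8 genes, beside 6.24% of all 30128 probe sets called higher and 6.41% lower (12.6% in all), and 1 of the 8, B2m, had an unadjusted p under 0.05. Their changes lay between -0.07 for Tap1 and 0.22 for B2m with a median of 0.07. Psmb9 was at 0.18, Erap1 at 0.09, Tapbp at 0.08, Tap2 at 0.06, and Psmb8 and Psmb10 at -0.01. The median over all probe sets was 0.00. For LAP against wild-type marrow limma called 0 of 8, beside 1.23% of all probe sets higher and 1.33% lower (2.57% in all), with 3 at an unadjusted p under 0.05. In both comparisons the shares are at the adjusted threshold. No share of all probe sets was counted at an unadjusted p, so the unadjusted counts have no such share beside them. The LAP changes ran from -0.27 for Erap1 to 0.24 for Tapbp with a median of -0.04 against -0.02 over all probe sets. Psmb8 was at -0.24, Psmb10 at -0.08, Tap1 at -0.06, Tap2 and B2m at -0.02 and Psmb9 at 0.03. The 95% interval for B2m in the knockout-labelled comparison was 0.06 to 0.38, with an adjusted p of 0.0760, and it was called when wild-type replicate 3 or knockout-labelled replicate 3 was left out. Centring the arrays on their medians turned its sign, to -0.12 (adjusted p = 0.372). The second B2m probe set, 1452428_a_at, changed by only 0.01 ± 0.067 (limma, adjusted p = 0.93). On the values as deposited Tapbp (0.33, adjusted p = 0.0299) and Psmb9 (0.42, adjusted p = 0.0186) were called higher with the knockout label, and B2m was (0.20, adjusted p = 0.0304) with all 21 arrays in 1 fit.

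With both labels, Tapbp fell. On the marrow scale its 3 arrays read 10.10, 10.00 and 9.92 in LAP knockout-labelled marrow, 10.41, 10.36 and 10.39 in wild-type, 10.50, 10.66 and 10.73 in LAP, and 10.59, 10.57 and 10.25 in knockout-labelled marrow. Every doubly labelled array lay below all 9 others. Tapbp fell by 0.38 ± 0.095 against wild-type marrow (limma, adjusted p = 0.00984), by 0.46 ± 0.095 against knockout-labelled (adjusted p = 0.0106) and by 0.62 ± 0.095 against LAP marrow (adjusted p = 0.000337). These falls leave 77.0%, 72.7% and 65.1% of the other group's level. The dimmer Tapbp probe set 1450378_at changed by -0.22 ± 0.15, -0.28 ± 0.15 and -0.16 ± 0.15 and was not called in any of the 3. On the values as deposited, where the median of all probe sets moves by 0.33, 0.02 and 0.40, Tapbp changed by -0.10, -0.43 and -0.22 and only the comparison with knockout-labelled marrow was called. That comparison lost its call without knockout-labelled replicate 1 or 2 or LAP knockout-labelled replicate 3, at an adjusted p of up to 0.0702, and without the intensity trend in limma (adjusted p = 0.0609).

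The LAP change of Tapbp differed with the knockout label. It was 0.24 ± 0.095 in wild-type marrow, which was not called (adjusted p = 0.191), and -0.46 in knockout-labelled marrow. The interaction, which subtracts the wild-type LAP change from that under the knockout label, was -0.70 ± 0.13 (limma, adjusted p = 0.0195), and Tapbp was the only one of the 8 genes called for it, beside 0.345% of all probe sets called higher and 0.866% lower (1.21% in all). The dimmer probe set gave -0.22 ± 0.22 (adjusted p = 0.717). Of the other 7 genes, Psmb10 (-0.23), Tap1 (-0.13), Psmb9 (-0.11) and B2m (-0.05) lay below 0 and Erap1 (0.52), Psmb8 (0.18) and Tap2 (0.09) above. The call was lost on the values as deposited (adjusted p = 0.123), without the intensity trend (adjusted p = 0.112) and when any of 7 single arrays was left out, at an adjusted p of up to 0.0662.

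Of the immunoproteasome genes, only Psmb10 was called in marrow on quantile-normalized arrays. It read 9.95, 10.01 and 9.82 in LAP knockout-labelled and 10.26, 10.27 and 10.20 in wild-type marrow, so the groups did not overlap, and fell by 0.32 ± 0.11 (limma, adjusted p = 0.0484). That call held without 4 of 12 single arrays and was lost without each of the other 8, without the filter (adjusted p = 0.0688) and without the intensity trend (adjusted p = 0.110), and on the values as deposited the change was -0.03. Psmb8 and Psmb9 changed by -0.07 ± 0.089 and 0.10 ± 0.092 in the same comparison, with 95% intervals of -0.27 to 0.12 and -0.10 to 0.30. Tap1 changed by -0.26 ± 0.20 (adjusted p = 0.377), Tap2 by 0.13 ± 0.10 (adjusted p = 0.396) and B2m by 0.15 ± 0.075 (adjusted p = 0.181). The interval of Tap1 was wide, -0.68 to 0.16, and B2m was called lower, at -0.27 (adjusted p = 0.0206), with median-centred arrays. In all, LAP knockout-labelled marrow had 2 of 8 genes lower and 0 higher than wild-type marrow, beside 12.6% of all probe sets called in each direction (25.2% in all). Against knockout-labelled marrow 1 of 8 fell, beside 1.94% of all probe sets higher and 3.14% lower (5.08% in all). Against LAP marrow 1 rose and 1 fell, beside 11.3% higher and 9.8% lower (21.1% in all). That split was 5 higher and 0 lower on the values as deposited. Psmb10 was -0.31 ± 0.11 against knockout-labelled marrow without a call (adjusted p = 0.139) and -0.24 ± 0.11 against LAP marrow (adjusted p = 0.147). The other changes that were not called ran from -0.19 for Tap1 to 0.25 for Erap1 in the first of these comparisons and from -0.20 for Tap1 to 0.16 for B2m and Psmb8 in the second. The medians of the 8 genes in these 3 comparisons were 0.01, -0.08 and 0.11, against 0.01, 0.01 and 0.02 over all probe sets.

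Erap1 rose in LAP knockout-labelled against LAP marrow. It read 7.24, 7.26 and 7.29 in LAP marrow and 7.60, 8.03 and 7.99 in LAP knockout-labelled marrow, with no overlap. The rise was 0.61 ± 0.12, or 1.52-fold (limma, adjusted p = 0.00252). Its second probe set, 1439068_at, rose by 0.81 ± 0.15 (adjusted p = 0.00152). The rise was called under each scaling, at 0.59 to 1.00, and without any single array, at 0.53 to 0.75. Against wild-type marrow Erap1 was 0.34 ± 0.12 higher at an adjusted p of 0.0551, and only the second probe set was called, at 0.52 ± 0.15 (adjusted p = 0.0205). The interaction of Erap1 was 0.52 ± 0.17 with an adjusted p of 0.203. A second Psmb8 probe set, 1444619_x_at, rose by 1.15 ± 0.31 against LAP marrow (adjusted p = 0.0180) while the brighter one changed by 0.16 ± 0.089 (adjusted p = 0.227). By Affymetrix naming the suffix x marks probes that can match more than 1 transcript.

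Class II molecules present peptides from outside the cell. All 9 measured class II genes fell in LAP knockout-labelled against wild-type marrow, with a median of -3.57, among them H2-DMb2 (-4.95 ± 0.16), H2-Eb1 (-4.60 ± 0.17) and the invariant chain gene Cd74 (-3.94 ± 0.19). All 9 also fell in knockout-labelled against wild-type marrow, with a median of -1.78, and these counts were the same under each scaling. In that comparison all 8 immature and mature B cell markers fell too, with a median of -1.94 and sums of 22200 to 24000 in wild-type and 8990 to 11600 in knockout-labelled marrow. The 9 pro-B and pre-B markers summed to 17700 to 18500 and 32300 to 37300, and 5 of them rose. The part of these cells in the class II falls was not tested. Of 10 tested class I heavy chain genes, 1 rose and 3 fell with both labels against wild type, which became 3 and 1 on the values as deposited and 1 and 5 with median-centred arrays. The classical H2-K1 and H2-D1 changed by 0.06 ± 0.060 and 0.02 ± 0.063 (adjusted p = 0.520 and 0.832). Heavy chain probe sets can take signal from near-identical genes, so their values are uncertain. H2-T24 fell by 0.81 ± 0.13 and Mr1, which presents vitamin metabolites, rose by 0.63 ± 0.15. Among 5 tested loading helpers, Tapbpl, the tapasin-related peptide editor, fell by 0.73 ± 0.11 (adjusted p = 0.000221), and the chaperone genes Canx and Calr rose by 0.35 ± 0.086 and 0.32 ± 0.095. With median-centred arrays 0 helpers rose. The Tapbpl level was 7.08 ± 0.13 in LAP knockout-labelled and 7.84 ± 0.057 in wild-type marrow, with no overlap.

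In LAP knockout-labelled against wild-type marrow, of 14 constitutive proteasome core genes 5 rose and 0 fell, with a median of 0.18, led by Psma7 (0.41 ± 0.078), Psma6 (0.39 ± 0.079) and Psma5 (0.37 ± 0.077). Among the subunits that immunoproteasomes exchange, Psmb5 rose by 0.28 ± 0.069 (adjusted p = 0.00881), Psmb6 was 0.21 ± 0.075 higher at an adjusted p of 0.0572, and Psmb7 changed by 0.10 ± 0.19 (adjusted p = 0.758). The core count was 0 with median-centred arrays and 12 on the values as deposited. Of 6 cytosolic peptidases 5 rose, 2 of them under median centring, led by Ide (0.65 ± 0.085), an insulin-degrading protease, and Lap3 (0.59 ± 0.19), a leucine aminopeptidase. Of 7 proteasome activator and assembly genes 2 rose and 1 fell, the last being Psme4 (-0.97 ± 0.13), which encodes the activator PA200. With median-centred arrays 0 of the 7 rose.

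Among the genes that control class I expression, Nlrc5, the transactivator of class I genes, rose by 0.63 ± 0.17 from wild-type to knockout-labelled marrow (adjusted p = 0.0244). Its knockout-labelled arrays were widely spread, at 9.67 ± 0.47 (SD, n = 3) against 9.05 ± 0.089, though the 2 groups did not overlap. In LAP knockout-labelled marrow Nlrc5 was 0.37 ± 0.17 above wild type at an adjusted p of 0.127. In that comparison 6 of 16 class I regulators fell and 0 rose, led by Irf2 (-0.72 ± 0.15), Irf1 (-0.63 ± 0.15), the interferon receptor chain Ifnar1 (-0.63 ± 0.12) and Rfx5 (-0.54 ± 0.083). On the values as deposited 3 rose and 1 fell. Of 21 interferon response genes 9 fell and 3 rose with a median of -0.53, led by Mx1 (-1.67 ± 0.23), Oas2 (-1.44 ± 0.27), Ifit3 (-1.29 ± 0.21) and Irf7 (-1.09 ± 0.22). Other cells moved with these comparisons too. The summed signal of 7 megakaryocyte markers was 2610 to 2730 in wild-type and 7070 to 10600 in LAP knockout-labelled marrow, all 7 were above the filter level in both and all 7 rose. The 9 neutrophil markers summed to 20000 to 24900 and 36800 to 48000, 8 monocyte and macrophage markers to 3230 to 4390 and 8050 to 10600, and 8 immature and mature B cell markers to 22200 to 24000 and 1690 to 1980. All 8 of the latter fell, and 2 neutrophil and 1 monocyte and macrophage markers rose. In LAP knockout-labelled against LAP marrow the 8 immature and mature B cell markers fell (median -3.69). There 7 of 7 megakaryocyte and 6 of 9 pro-B and pre-B markers rose. Against knockout-labelled marrow the same 8 fell (median -2.44) and 7 of 7 megakaryocyte markers rose. In the interaction these 8 were called lower (median -1.76). Of all probe sets 21.1%, 5.08% and 1.21% were called, in that order. The part of any of these cells in the changes of Tapbp, Psmb10 and Erap1 was not tested.

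**Figure D2:**
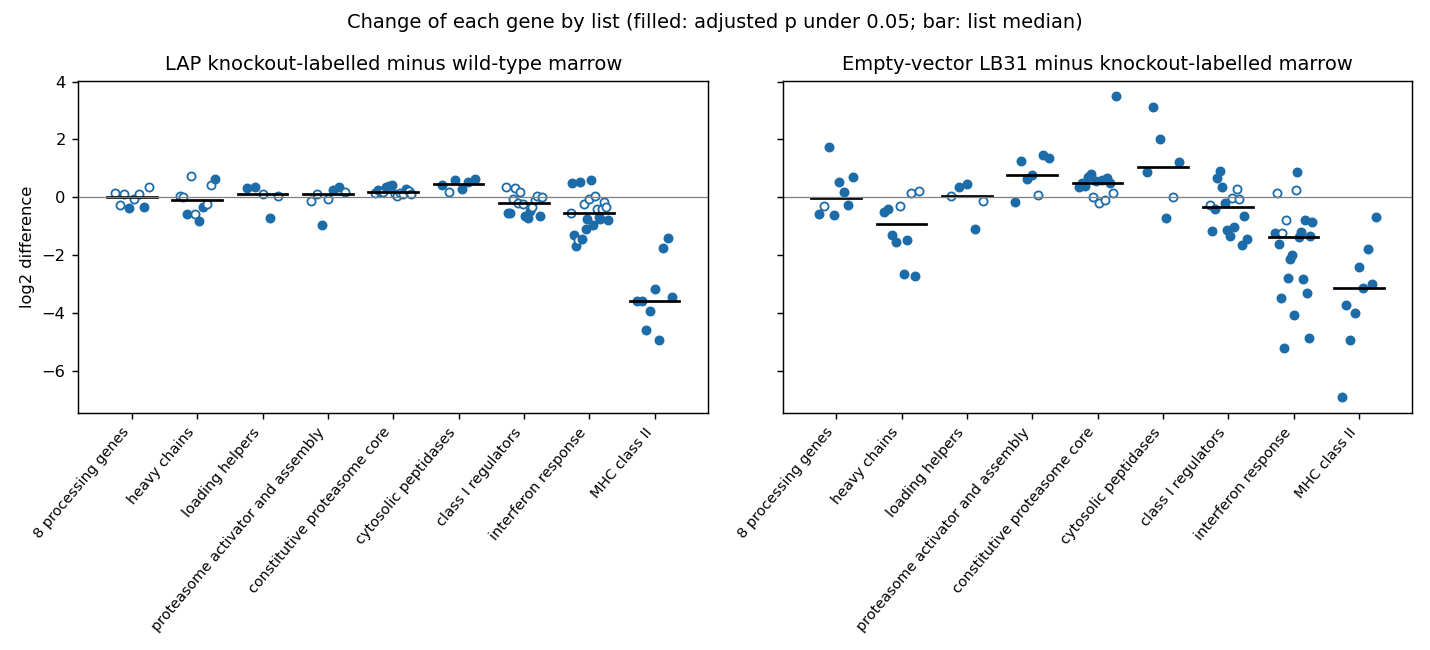
Log2 difference (y axis) of each measured gene by list (x axis) for LAP knockout-labelled minus wild-type marrow (left) and empty-vector LB31 minus knockout-labelled marrow (right); filled points were called at an adjusted p under 0.05 and bars are list medians. The 8 processing genes lie within -0.38 and 0.34 on the left while all 9 class II genes fell, and on the right they spread from -0.62 to 1.75.

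In LB31 the question was how these genes differ with the Blnk cDNA label, with the YF mutant as its control. On quantile-normalized arrays all 4 clustered genes of chromosome 17 fell in BLNK-labelled against empty-vector cells, and 3 of them, all but Tap1, also against YF. Of the falls against YF only that of Tap2 was called under the other 3 scalings, where Psmb8 was at -0.32 to -0.20 and Psmb9 at -0.34 to -0.19. Tap2 read 9.65, 9.78 and 9.74 on the BLNK-labelled arrays, 10.14, 10.38 and 10.25 with the empty vector and 10.25, 10.27 and 10.30 with YF. The BLNK-labelled arrays were below both other groups with no overlap, and the other groups overlapped. Tap2 fell by 0.53 ± 0.060 against the empty vector (limma, adjusted p = 6.94e-05) and by 0.55 ± 0.060 against YF (adjusted p = 7.59e-05), to 69.1% and 68.3% of their levels. The fall against YF was called under each of 4 scalings, at -0.52 to -0.73, and without any single array. The fall against the empty vector had the same sign in all, at -0.30 to -0.53, but was not called with median-centred arrays (adjusted p = 0.0646) or on the values as deposited (adjusted p = 0.422).

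Psmb8 read 11.31, 11.34 and 11.34 on BLNK-labelled arrays, 11.58, 11.69 and 11.67 with the empty vector and 11.52, 11.54 and 11.57 with YF. The 3 groups did not overlap. It fell by 0.32 ± 0.039 against the empty vector (limma, adjusted p = 0.000159) and by 0.21 ± 0.039 against YF (adjusted p = 0.00549). Psmb9 read 10.50, 10.51 and 10.48 on BLNK-labelled arrays against 10.68, 10.82 and 10.81, a fall of 0.28 ± 0.045 (adjusted p = 0.00136), and fell by 0.20 ± 0.045 against YF (adjusted p = 0.0160). The calls against YF were lost without the intensity trend (adjusted p = 0.128 and 0.157), and that of Psmb9 also without any of 5 single arrays. Tap1 read 9.32, 9.36 and 9.28 against 9.50, 9.67 and 9.63, a fall of 0.28 ± 0.058 (adjusted p = 0.00657), and was -0.13 ± 0.058 against YF (adjusted p = 0.261). Without the intensity trend the fall of Tap1 was not called (adjusted p = 0.0647). The falls against the empty vector were called whichever single array was left out. With median-centred arrays Psmb8, Psmb9 and Tap1 changed by -0.02, -0.01 and -0.08 against the empty vector, and none was called. That scaling moved the median of all probe sets to 0.11, and the median deposited signal of empty-vector replicate 1 was 19.5 against 15.9 and 15.5 on the other empty-vector arrays.

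Second probe sets did not repeat the falls of Tap1 and Psmb8. Tap1 1448177_at changed by 0.21 ± 0.15 (adjusted p = 0.452) and Psmb8 1444619_x_at by 0.46 ± 0.20 (adjusted p = 0.185) against the empty vector. Tap2 and Psmb9 have a single probe set each. Psmb10 read 9.97, 10.03 and 10.01 on BLNK-labelled arrays and 9.96, 10.14 and 10.09 with the empty vector, and Tapbp 9.95, 9.90 and 9.95 against 9.91, 9.96 and 9.93, so both overlapped. The third immunoproteasome gene, Psmb10 on chromosome 8, changed by -0.06 ± 0.055 (95% interval -0.18 to 0.06) and Tapbp by 0.00 ± 0.048 (-0.10 to 0.11). Erap1 rose instead. It read 8.44, 8.45 and 8.47 on BLNK-labelled arrays, 8.19, 8.12 and 8.13 with the empty vector and 8.20, 8.18 and 8.17 with YF. The rise was 0.31 ± 0.059 against the empty vector (limma, adjusted p = 0.00440) and 0.27 ± 0.059 against YF (adjusted p = 0.0147). Its second probe set, 1439068_at, rose by 0.46 ± 0.11 against the empty vector (adjusted p = 0.0160) but was not called against YF. That probe set was at 7.68 ± 0.27 with the empty vector, 8.15 ± 0.078 on BLNK-labelled arrays and 7.99 ± 0.049 with YF. The rise of the brighter probe set was positive under each scaling. It was called in 2 of 4 against the empty vector and 1 of 4 against YF, where leaving out any of 4 single arrays also ended the call. B2m read 13.07, 13.07 and 13.04 against 13.01, 12.87 and 12.88. It was called higher by 0.14 ± 0.040 (adjusted p = 0.0402), a call that was lost without 8 of 9 single arrays, while its second probe set changed by -0.11 ± 0.036 (adjusted p = 0.0769).

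By count, 2 of 8 genes rose and 4 fell for BLNK-labelled against empty-vector LB31, beside 5.6% of 29478 probe sets called higher and 5.84% lower (11.4% in all), with a median of -0.17 against 0.00 over all probe sets. The split was 2 higher (B2m and Erap1) and 0 lower with median-centred arrays, 0 called on the values as deposited, and 0 higher and 2 lower (Psmb8 and Tap2) with all 21 arrays in 1 fit. Against YF 1 rose and 3 fell, beside 2.53% higher and 3.86% lower (6.4% in all), with a median of -0.08. These comparisons share the BLNK-labelled arrays. For the YF mutant against the empty vector limma called 0 of 8 genes, beside 0.227% of all probe sets, with changes between -0.15 and 0.15. At an unadjusted p under 0.05 there were 3 genes, and no share of all probe sets was counted at that threshold. Without empty-vector replicate 1 that comparison called B2m, Tap1 and Psmb8, at adjusted p-values down to 0.00150. B2m was 0.15 ± 0.040 higher with YF at an adjusted p of 0.129, Tap1 -0.15 ± 0.058, Psmb8 -0.11 ± 0.039, Psmb9 -0.07 ± 0.045, Psmb10 -0.05 ± 0.055 and Tapbp 0.02 ± 0.048. For Tap2 the YF change was 0.02 ± 0.060, with a 95% interval of -0.11 to 0.15, and for Erap1 0.04 ± 0.059, with an interval of -0.09 to 0.16.

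**Figure D3:**
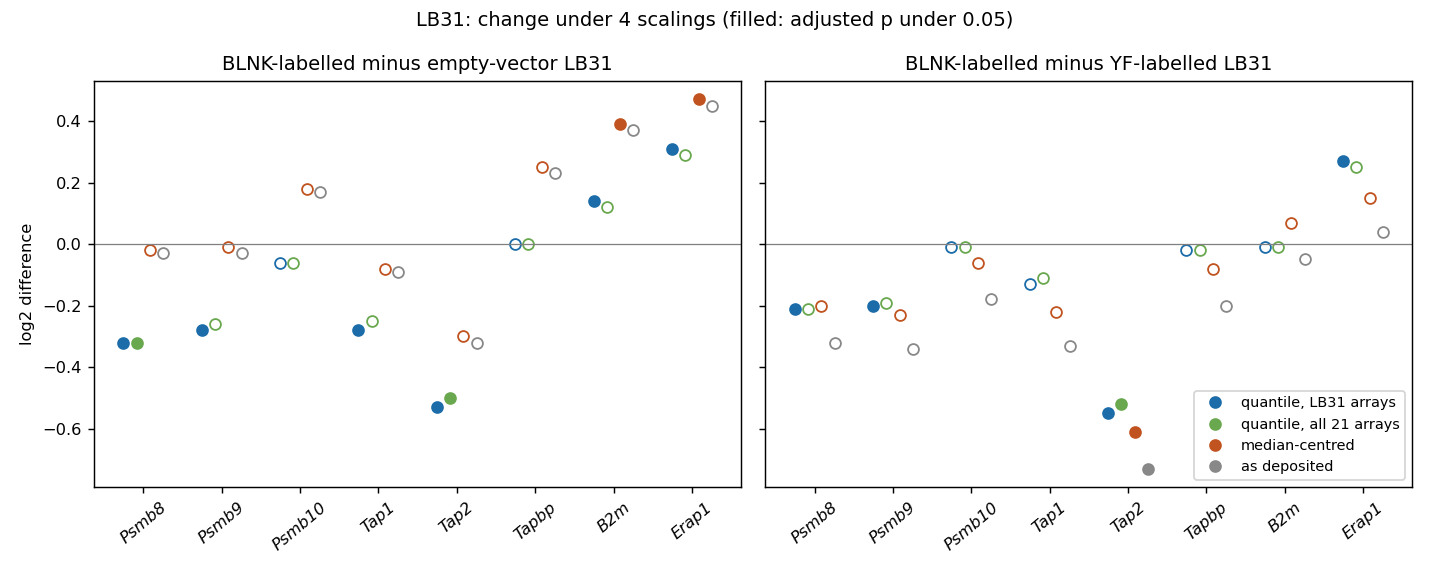
Log2 difference (y axis) of each gene (x axis) for BLNK-labelled minus empty-vector (left) and minus YF-labelled LB31 (right) under 4 scalings of the arrays; filled points were called at an adjusted p under 0.05. Tap2 is below 0 and Erap1 above 0 in all 8 cases, Tap2 against YF is the only change called under all 4 scalings, and Psmb8, Psmb9 and Tap1 approach 0 against the empty vector with median-centred or deposited values.

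Within 100000 bases of the Psmb9 to Tap2 cluster RefSeq lists 12 protein-coding genes, of which 11 were tested. This window was chosen after its values had been seen. Besides the 4 genes above, H2-Oa fell by 0.82 ± 0.12 against the empty vector (adjusted p = 0.000567), H2-Ob by 0.30 ± 0.084 (adjusted p = 0.0337) and Brd2, a bromodomain protein gene, by 0.17 ± 0.046 (adjusted p = 0.0288). H2-Oa and H2-Ob encode the chains of H2-O, which restrains class II loading, and both also fell against YF. So did Brd2, by 0.27 ± 0.046 (limma, adjusted p = 0.00234). These neighbour values are from quantile-normalized arrays, and other scalings are not given for them. The other 4 tested genes, H2-DMa, H2-DMb2, H2-Ab1 and H2-Aa, changed by -0.46 to 0.49 and were not called.

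The other lists stand beside 5.6% of all probe sets called higher and 5.84% lower in BLNK-labelled against empty-vector cells. There 0 of 16 class I regulators rose and 3 fell. They were the interferon gamma receptor chain Ifngr1 (-0.48 ± 0.070, adjusted p = 0.000586), Irf1 (-0.35 ± 0.082, adjusted p = 0.0147) and Irf8 (-0.26 ± 0.041, adjusted p = 0.00124). Nlrc5 changed by 0.09 ± 0.064 (adjusted p = 0.425). Of 16 tested interferon response genes 3 fell and 1 rose, with a median of -0.05. Gbp2, an interferon-inducible guanylate-binding protein gene, fell by 1.5 ± 0.10 (adjusted p = 7.38e-07) and by 1.10 ± 0.10 against YF (adjusted p = 2.03e-05), and Gbp3 by 0.78 ± 0.077 and 0.68 ± 0.077. Of 14 constitutive proteasome core genes 2 rose and 0 fell, and Psmb5, Psmb6 and Psmb7 changed by -0.05 ± 0.043, -0.06 ± 0.060 and -0.30 ± 0.10 without a call. Of 9 tested heavy chain genes only H2-D1 was called, at -0.15 ± 0.040 (adjusted p = 0.0260), and 3 of 5 loading helpers fell, Uggt1, Pdia3 and Calr, by 0.33, 0.20 and 0.16. With median-centred arrays 0 regulators, heavy chains and loading helpers were called, and Gbp2 was among 2 interferon genes lower.

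Empty-vector LB31 was called different from knockout-labelled marrow for 7 of the 8 genes. Against knockout-labelled marrow, 4 rose and 3 fell in empty-vector LB31, beside 29.3% of 33764 probe sets called higher and 27.6% lower (56.9% in all). Most of the array thus differed between these cells, and the median of the 8 genes was -0.03 against 0.08 over all probe sets. Tap2 rose most. It read 10.10, 10.32 and 10.20 in LB31 and 8.58, 8.42 and 8.38 in knockout-labelled marrow, a rise of 1.75 ± 0.087, or 3.35-fold (limma, adjusted p = 2.31e-13). Psmb8 read 11.47, 11.57 and 11.55 against 11.03, 11.06 and 10.95, a rise of 0.52 ± 0.075 (adjusted p = 3.66e-06). Both were called under each scaling, at 1.37 to 2.02 and 0.33 to 0.99. Erap1 rose by 0.71 ± 0.098 (adjusted p = 1.86e-06) and Psmb9 by 0.20 ± 0.077 (adjusted p = 0.0350). Psmb9 was not called without the intensity trend (adjusted p = 0.0838) or without any of 4 of 9 single arrays, at 0.13 to 0.32 and an adjusted p of up to 0.180 over those 9. On the values as deposited, where the median of all probe sets moves to -0.42, these were 0.18 and -0.03 and not called.

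B2m, Tapbp and Psmb10 were called lower, at -0.57 ± 0.063 (adjusted p = 6.19e-08), -0.62 ± 0.081 (adjusted p = 7.31e-07) and -0.25 ± 0.094 (adjusted p = 0.0254, or 0.0604 without the intensity trend). The call of Psmb10 was also lost without any of 3 of 9 single arrays, at -0.40 to -0.17 and an adjusted p of up to 0.154. With median-centred arrays B2m and Psmb10 changed sign, to 0.16 and 0.13, and Tapbp remained lower at -0.24 (adjusted p = 0.0294). Probe sets of 2 genes disagreed. For Tapbp, 1450378_at rose by 1.24 ± 0.13 (adjusted p = 4.43e-08) where 1421812_at fell. For Tap1, the bright probe set 1416016_at changed by -0.30 ± 0.17 (adjusted p = 0.142), while 1448177_at read 5.89, 5.71 and 5.87 in LB31 and 2.86, 2.79 and 2.88 in knockout-labelled marrow, where it is below the filter level of 4.06, a difference of 2.98 ± 0.31 (adjusted p = 2.52e-08). No direction between LB31 and marrow can therefore be given for Tapbp and Tap1. Both B2m probe sets were lower and both Erap1 probe sets higher. The comparison with LAP knockout-labelled marrow, which shares the LB31 arrays, gave 4 higher and 1 lower of 8 genes, beside 28.7% of all probe sets higher and 27.1% lower (55.8% in all). They were Tap2 (1.67 ± 0.087), Psmb8 (0.59 ± 0.075), Erap1 (0.45 ± 0.098), Psmb9 (0.28 ± 0.077) and B2m (-0.51 ± 0.063). With median-centred arrays B2m was called higher there instead, at 0.31 (adjusted p = 0.00835).

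**Figure D4:**
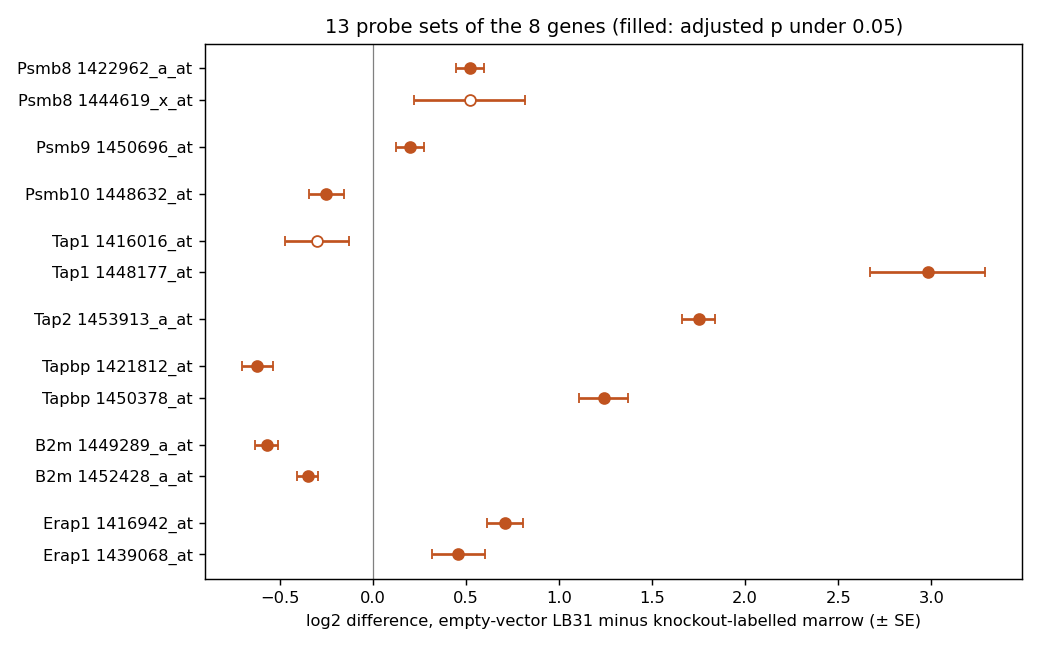
Log2 difference ± SE (x axis) of the 13 tested probe sets (y axis) for empty-vector LB31 minus knockout-labelled marrow, n = 3 arrays per group; filled points were called at an adjusted p under 0.05. The probe sets of Tapbp lie on opposite sides of 0, at -0.62 and 1.24, those of Tap1 at -0.30 and 2.98, and those of B2m and of Erap1 each lie on 1 side.

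Counts in the surrounding lists stand beside the 56.9% of all probe sets called in this comparison. Of 10 heavy chain genes 7 fell and 0 rose in empty-vector LB31 against knockout-labelled marrow, with a median of -0.90, including H2-K1 (-0.51 ± 0.055) and H2-D1 (-0.39 ± 0.058) and, further, Cd1d1 (-2.72 ± 0.20) and H2-M3 (-1.47 ± 0.10). Of 21 interferon response genes 16 fell and 1 rose, with a median of -1.36, led by Oas1a (-5.20 ± 0.26) and Rtp4 (-4.87 ± 0.33). Of 14 constitutive proteasome core genes 10 rose and 0 fell, with a median of 0.49. Psmb5 rose by 0.49 ± 0.057 (adjusted p = 1.53e-07), Psmb6 was 0.15 ± 0.069 higher at an adjusted p of 0.0641, and Psmb7 rose by 3.50 ± 0.16 (adjusted p = 7.94e-14) on its single probe set. Thop1, a cytosolic peptidase known to destroy class I peptides, rose by 3.12 ± 0.14 on one probe set and changed by 0.00 ± 0.26 on the other. All 9 class II genes fell, with a median of -3.14. Under the other 2 scalings 9 and 5 heavy chain genes fell and 5 and 13 core genes rose, with 1 heavy chain gene higher under median centring and 1 core gene lower on the values as deposited. Against LAP knockout-labelled marrow 10 core genes rose and 3 fell, or 4 and 4 on the values as deposited, and 7 heavy chain genes fell and 0 rose. Nlrc5 changed by -0.26 ± 0.15 (adjusted p = 0.131). Neutrophil, monocyte and macrophage, and megakaryocyte markers summed to at most 116, 392 and 170 in empty-vector LB31. B cell stage markers differed too. All 8 immature and mature B cell markers fell against knockout-labelled marrow, with a median of -4.51 and sums of 136 to 155 against 8990 to 11600. Of 9 pro-B and pre-B markers 5 fell and 1 rose there. The part of B cell stage or of marrow cells other than B cells in these differences was not tested.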

How the data were processed

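The 8 genes and the gene lists were chosen with earlier results of these data known. The deposited values are intensity signals per probe set on a linear scale, and the authors used MAS5, per the submitters' processing notes. The scaling of the arrays before deposit is not stated in the labels. Of 45101 probe sets, 64 controls were left out; 34945 had 1 gene symbol on the platform, 932 several and 9160 none. Signals plus 4 were taken to log2 and quantile normalized within each fit of 12 marrow, 9 LB31 or all 21 arrays. Probe sets brighter than the 40th percentile of an array on 3 or more arrays were tested (30128, 29478 and 33764). Differences between group means came from limma 3.58.1 (lmFit, then eBayes with trend) in R 4.3.3, with no covariates, and the fit was tested on simulated data. Genes named were the 8 genes, Nlrc5, Psmb5, Psmb6, Psmb7 and Thop1, called list genes with the largest changes (at most 4 a list and comparison), and the 8 genes most like the mean profile of the members. H2-K1, H2-D1 and the neighbours of the cluster were added after their values were seen. Replicate arrays correlated at r of 0.964 to 0.977, and no 2 were identical. The number of arrays limits the precision. Alternatives were the values as deposited, median centring, 1 fit of all arrays, pseudocounts of 1 and 16, no filter or a 60th percentile filter, 1 probe set per gene, no trend, a replicate block, other probe sets and leaving out each array.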

Additional observations from a re-analysis of the deposited data

Results flagged for a closer look

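The LAP change of Tapbp differed between knockout-labelled and wild-type marrow by -0.70 on the log2 scale (limma, adjusted p = 0.0195), as described above. On quantile-normalized arrays every LAP knockout-labelled array lay below all arrays of the other 3 marrow groups. As deposited, wild-type replicate 2 (1121) was below the LAP knockout-labelled arrays (1139 to 1181). The call was lost on the values as deposited, without the intensity trend (adjusted p = 0.112 by limma) and when any of 7 single arrays was left out. The dimmer Tapbp probe set gave -0.22 (adjusted p = 0.717).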

How the results depend on the processing

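Of 88 gene changes (8 genes in 11 comparisons), 28 were called as reported, 48 were called in at least 1 setting or probe set, and 40 in none. Pseudocounts of 1 and 16 changed no call. The scaling of the arrays mattered most; where calls came and went the cause was not tested. Over all 88 changes, 19 had the other sign with median-centred arrays and 18 on the values as deposited. With median-centred arrays these were B2m (-0.12), Tap2 (-0.04) and Tapbp (-0.03) in knockout-labelled and Psmb9 (-0.08) in LAP against wild-type marrow, B2m with both labels against wild-type (-0.27, called) and LAP (-0.14) marrow, and Psmb9 in the interaction (0.03). In LB31 they were Psmb10 (0.18) for BLNK and Tap1 (0.14), Psmb8 (0.18), Psmb9 (0.22) and Psmb10 (0.24) for YF against the empty vector, and B2m (0.07) for BLNK against YF. For LB31 against knockout-labelled marrow they were B2m (0.16), Tap1 (0.04) and Psmb10 (0.13), and against LAP knockout-labelled marrow B2m (0.31, called), Tap1 (0.22) and Tapbp (0.21). On the values as deposited they were Tap1 (0.16), Psmb8 (0.24) and Psmb10 (0.24) in knockout-labelled and Psmb9 (-0.09) in LAP against wild-type marrow, Psmb8 with both labels against wild type (0.21), Tap1 (0.19) and Psmb10 (0.17) against LAP, and B2m (0.01), Tap1 (0.03) and Psmb9 (0.06) in the interaction. They were also Psmb10 (0.17) for BLNK and Tap1 (0.24), Psmb8 (0.29), Psmb9 (0.32) and Psmb10 (0.34) for YF against the empty vector, Psmb9 (-0.03) for LB31 against knockout-labelled marrow, and Psmb10 (-0.25) and Erap1 (-0.07) against LAP knockout-labelled marrow.

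Other probe sets of a gene also had the other sign. For B2m this was so in LAP against wild-type marrow (0.03), with both labels against wild-type (-0.07) and LAP (-0.10) marrow, and for BLNK (-0.11) and YF (-0.03) against the empty vector. For Tap1 it was so for BLNK against the empty vector (0.21) and YF (0.32) and for LB31 against both marrow groups (2.98 and 2.4). For Psmb8 it was so in knockout-labelled marrow (0.34) and with both labels (0.46) against wild type, with both against the knockout label (0.11), for BLNK (0.46) and YF (0.33) against empty-vector cells, and between BLNK and YF (0.12). For Tapbp it was so in LAP against wild-type marrow (-0.06), for YF against the empty vector (-0.21), for BLNK against YF (0.09) and for LB31 against both marrow groups (1.24 and 1.54). Leaving out single arrays turned the sign of 13 changes, all uncalled. In knockout-labelled against wild-type marrow Tap1 ran from -0.18 to 0.06, Psmb8 from -0.06 to 0.05 and Psmb10 from -0.08 to 0.13, and in LAP against wild-type marrow B2m from -0.06 to 0.05, Tap1 from -0.21 to 0.16 and Psmb9 from -0.02 to 0.08. With both labels against the knockout label Tap2 ran from -0.01 to 0.18 and Psmb9 from -0.14 to 0.03, and in the interaction Tap1 from -0.35 to 0.04. For YF against the empty vector Tap2 ran from -0.04 to 0.08, for BLNK against YF B2m from -0.02 to 0.01 and Psmb10 from -0.04 to 0.02, and for LB31 against LAP knockout-labelled marrow Tap1 from -0.28 to 0.03.

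On the values as deposited the genes called numbered 2 (higher) between knockout-labelled and wild-type marrow, 5 (5 higher, 0 lower) between LAP knockout-labelled and LAP marrow, 0 for the interaction, 0 for BLNK against the empty vector and 1 (lower) for BLNK against YF; the probe sets called were 6910, 11804, 212, 736 and 783, and 327 for YF against the empty vector. With median centring 2 genes were called (2 higher, 0 lower) for BLNK against the empty vector and 1 (lower) for BLNK against YF, with 1080 probe sets in the latter and 1833 for YF against the empty vector. With all arrays in 1 fit, 1 gene was called (higher) between knockout-labelled and wild-type marrow, 2 (lower) for LAP knockout-labelled against knockout-labelled marrow, 2 (1 higher, 1 lower) for the interaction, 2 (lower) for BLNK against the empty vector and 1 (lower) for BLNK against YF. The probe sets called there were 1853 for LAP against wild-type marrow, 885 for the interaction, 1465 and 682 for BLNK against the empty vector and YF, and 16 for YF against the empty vector. Without the intensity trend 1 gene was called between LAP knockout-labelled and wild-type marrow, 0 against knockout-labelled marrow, 0 for the interaction and 2 for BLNK against YF, and the probe sets called were 352 for LAP against wild-type marrow, 189 for the interaction, 1648 and 872 for BLNK against the empty vector and YF, and 2 for YF against the empty vector. Without a filter 1 gene was called between LAP knockout-labelled and wild-type marrow, and 23 probe sets for YF against the empty vector. With 1 probe set per gene or a 60th percentile filter, Erap1 was called against wild-type marrow (adjusted p = 0.0412 and 0.0369 by limma).

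As reported, the probe sets called against wild-type marrow were 3811 with the knockout label, 774 with LAP and 7601 with both, those for both against knockout-labelled and LAP marrow 1531 and 6357, and the others 365 for the interaction, 3373 and 1886 for BLNK against the empty vector and YF, and 67 for YF against the empty vector. Leaving out single arrays gave 2496 to 4555, 233 to 862, 5829 to 8453, 799 to 2170, 4742 to 6509, 204 to 583, 2207 to 4966, 1096 to 2595 and 1 to 2078 in that order, the last being 2078 without empty-vector replicate 1. For LB31 against knockout-labelled and LAP knockout-labelled marrow the counts were 17846 to 19168 and 17512 to 18874. The genes called numbered 0 to 1, 0, 1 to 2, 0 to 2, 2, 0 to 1, 5 to 6, 2 to 4, 0 to 3, 5 to 7 and 5.

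Replicate numbers showed no clear pairing of the arrays, though weak pairing is not excluded. In marrow, same-numbered arrays of different groups deviated with correlations of -0.09 to 0.24, against -0.25 to 0.20 for other numbers. There 1 of 18 same-numbered pairs was over 0.1, and 6 of 12 arrays correlated best with their own number. In LB31 the ranges were -0.03 to 0.02 and -0.04 to 0.04, with 0 of 9 pairs over 0.1 and 4 of 9 arrays best with their own number. With the replicate block 2 genes were called for LAP knockout-labelled against knockout-labelled marrow, where Psmb10 was added (-0.31, adjusted p = 0.0495 by limma), and 4 probe sets for YF against the empty vector. The block changed no other call of the 8 genes. Split of calls by scaling: quantile normalization made 49.4% of calls higher for knockout-labelled against wild-type marrow, values as deposited 90.6% and median centring 34.0%. For BLNK against the empty vector these shares were 49.0%, 71.3% and 81.9%.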
